A study of Mus musculus with 9 samples.

Results

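The genes described here are 37 chaperone and stress response genes, chosen by name from 39184 genes listed in both comparison tables of the study. They fall into 10 heat shock and mitochondrial chaperone genes, 14 genes of protein folding in the endoplasmic reticulum (ER), and 13 genes of the integrated stress response. Every one of the 37 names was found once in each table.

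RNA was sequenced from the cortex of mouse embryos with 3 genotypes at HAR1984, a human accelerated region that the series treats as an enhancer. Control embryos (Mm/Mm) carried the mouse sequence on both alleles. Deletion embryos (del/del, labelled CRISPR KO) lacked it on both alleles, and knock-in embryos (Hs/Mm, labelled CRISPR KI) carried 1 human and 1 mouse allele. Each genotype had 3 libraries, called biological replicates in the design text, and the labels place them at E16.5 (embryonic day), with 1 deletion library at E16.6. The labels name cortex as the tissue and neural progenitors as the cell type, and all libraries have the same batch label. The labels give neither the strain, nor the sex, nor the number of founder lines, nor whether litters were shared, so p-values measure the spread among these libraries.

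Cells meet misfolded protein and nutrient shortage with separate transcriptional programmes. In the cytosol, heat shock factors induce chaperones such as Hspa1a. In the ER, the unfolded protein response acts through ATF6 and XBP1 to raise folding enzymes and chaperones such as Hspa5. In the integrated stress response, phosphorylation of the initiation factor eIF2 lowers general translation while favouring translation of ATF4, which induces amino acid synthesis genes and, under lasting stress, Ddit3. The developing cortex uses these genes also without stress, because dividing progenitors and growing neurons make much protein, and ATF4 signalling and the unfolded protein response are known to bear on cortical neurogenesis.

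The response elements of the 3 programmes are shown first, because they describe the genes by a feature that expression did not enter. RefSeq promoter windows of GRCm38.p6, from 250 bases before to 50 after each annotated start, were found for 33 of the 37 genes, and both strands were searched. The heat shock element was sought as 3 alternating units GAA and TTC with NN between them, starting with either, the ER stress response element as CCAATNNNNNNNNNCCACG and the C/EBP-ATF response element, through which ATF4 acts, as TGATGNAA. The heat shock element was in the windows of 3 of 7 heat shock genes, 0 of 13 ER genes and 0 of 13 integrated stress genes. It was in 0.662% of all 27025 genes with a window. The 3 were Hsph1, Hspd1 and Hspe1, and the matches of Hspd1 and Hspe1 are the same bases, as described below. Hspa1a, Hspa1b, Dnajb1 and Hspb1 had a window without a match. The ER stress response element was in 6 of 13 ER genes and in 0 genes of the other groups, against 0.137% of all genes. The C/EBP-ATF element was in 4 of 13 integrated stress genes and 1 ER gene, Herpud1, against 4.51% of all genes. No member held more than 1 of these 3 kinds, so the kinds did not overlap each other. A match is a description of the letters, and a missing match says only that these letters are not in the window. Most genes with a window in each group had no match to the element of their own programme. The genes were chosen by name as parts of these programmes, so the counts are no separate support for the grouping. The core CCACG of the ER element was in 4 of 7 heat shock, 11 of 13 ER and 9 of 13 integrated stress genes. It was in 35.5% of all genes.

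The ER stress response elements of the 6 ER genes are given below as the gene's strand reads, with the element in capitals and 6 bases of each flank. Hsp90b1 had 2, and those of Calr and Creld2 and the second of Hsp90b1 lay on the opposite strand.
Hspa5 (chr2:34772019-34772049): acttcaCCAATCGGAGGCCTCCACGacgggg
Pdia6 (chr12:17266485-17266515): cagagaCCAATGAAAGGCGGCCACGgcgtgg
Canx (chr11:50325794-50325824): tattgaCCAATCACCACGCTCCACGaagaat
Hsp90b1 (chr10:86705632-86705662): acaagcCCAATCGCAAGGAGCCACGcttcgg
Hsp90b1 (chr10:86705527-86705557): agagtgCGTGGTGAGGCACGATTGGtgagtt
Calr (chr8:84847069-84847099): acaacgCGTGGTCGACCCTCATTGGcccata
Creld2 (chr15:88819514-88819544): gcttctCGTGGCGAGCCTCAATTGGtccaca

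The C/EBP-ATF elements of 4 integrated stress genes are shown in the same way, and all but that of Asns lay on the opposite strand.
Asns (chr6:7693219-7693238): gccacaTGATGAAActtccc
Atf3 (chr1:191183430-191183449): tcgcacTTGCATCAccaagt
Chac1 (chr2:119351043-119351062): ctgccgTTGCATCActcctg
Trib3 (chr2:152344033-152344052): tcaggtTTACATCAgccggg

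Hspd1 and Hspe1, which encode the mitochondrial chaperonin and its co-chaperonin, are transcribed away from each other from 1 shared promoter, and the same heat shock elements are in both windows. The window of Hspe1 is printed whole, with 2 overlapping matches in capitals, and is followed by the whole window of Hspa5.
Hspe1 (chr1:55087898-55088197, plus strand): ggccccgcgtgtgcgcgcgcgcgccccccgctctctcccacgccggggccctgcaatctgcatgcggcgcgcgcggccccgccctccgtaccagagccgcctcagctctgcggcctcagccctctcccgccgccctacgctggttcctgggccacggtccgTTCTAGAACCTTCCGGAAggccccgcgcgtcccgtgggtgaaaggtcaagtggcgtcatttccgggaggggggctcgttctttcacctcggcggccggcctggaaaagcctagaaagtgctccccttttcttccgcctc
Hspa5 (chr2:34771840-34772139, plus strand): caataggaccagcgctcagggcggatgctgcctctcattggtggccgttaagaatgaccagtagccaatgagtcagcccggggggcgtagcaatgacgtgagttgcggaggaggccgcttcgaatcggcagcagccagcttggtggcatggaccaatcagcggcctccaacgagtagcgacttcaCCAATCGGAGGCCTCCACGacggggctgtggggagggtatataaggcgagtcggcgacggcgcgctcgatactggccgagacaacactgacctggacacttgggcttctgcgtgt

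The 37 genes spanned a wide range of levels in this tissue. Level here is baseMean, the authors' mean normalised count over all libraries, divided by the exon length in kb of the gene in GENCODE vM21. The deposited columns with library names hold no measurement, as described under processing, so a spread over libraries cannot be given for any level and neighbouring levels were not tested. Hsp90ab1, the constitutive cytosolic HSP90, stood highest at 30913 per kb, and Hspa8, the constitutive HSP70, came next at 7752 per kb. Their stress-inducible relatives were far lower. Hspa1b was at 38.7 per kb and Hspa1a at 11.2 per kb, so the level of Hspa8 per kb was 200.4 and 689 times theirs. Hsp90aa1, the inducible HSP90, was at 2848 per kb, and the level of Hsp90ab1 per kb was 10.9 times that. The small heat shock protein gene Hspb1 was also low, at 52.0 per kb. How reads were divided between similar genes is not known, so these ratios hold only for the counts as listed. By the measure of shared sequence described below, 47.5% of Hsp90aa1 was found also in other genes, against 3.44% of Hsp90ab1. The share was 39.4% for Hspa8, 62.3% for Hspa1b and 66.3% for Hspa1a.

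ER genes formed the most even group, from 327 per kb for the co-chaperone gene Sdf2l1 to 6540 per kb for Calr, the calcium-binding lectin chaperone, with a median of 1442 per kb. Hspa5 (BiP), the ER HSP70 that also restrains the stress sensors, was at 2815 per kb. Among integrated stress genes, Atf4 was at 2383 per kb, Psat1 of serine synthesis at 1689 per kb and Atf5, a transcription factor related to ATF4, at 1006 per kb. Ddit3 (CHOP), a pro-apoptotic factor, was at 277 per kb, the median of the group, and the ATF4 target Asns was above it at 466 per kb. Ppp1r15a, Mthfd2 and Sesn2 lay below Ddit3, at 225, 163 and 115 per kb. The lowest were Chac1, a glutathione-degrading enzyme, at 47.0 per kb and the immediate stress factor Atf3 at 21.7 per kb. Trib3, a pseudokinase that feeds back on ATF4, was lower still at 6.77 per kb.

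**Figure D1:**
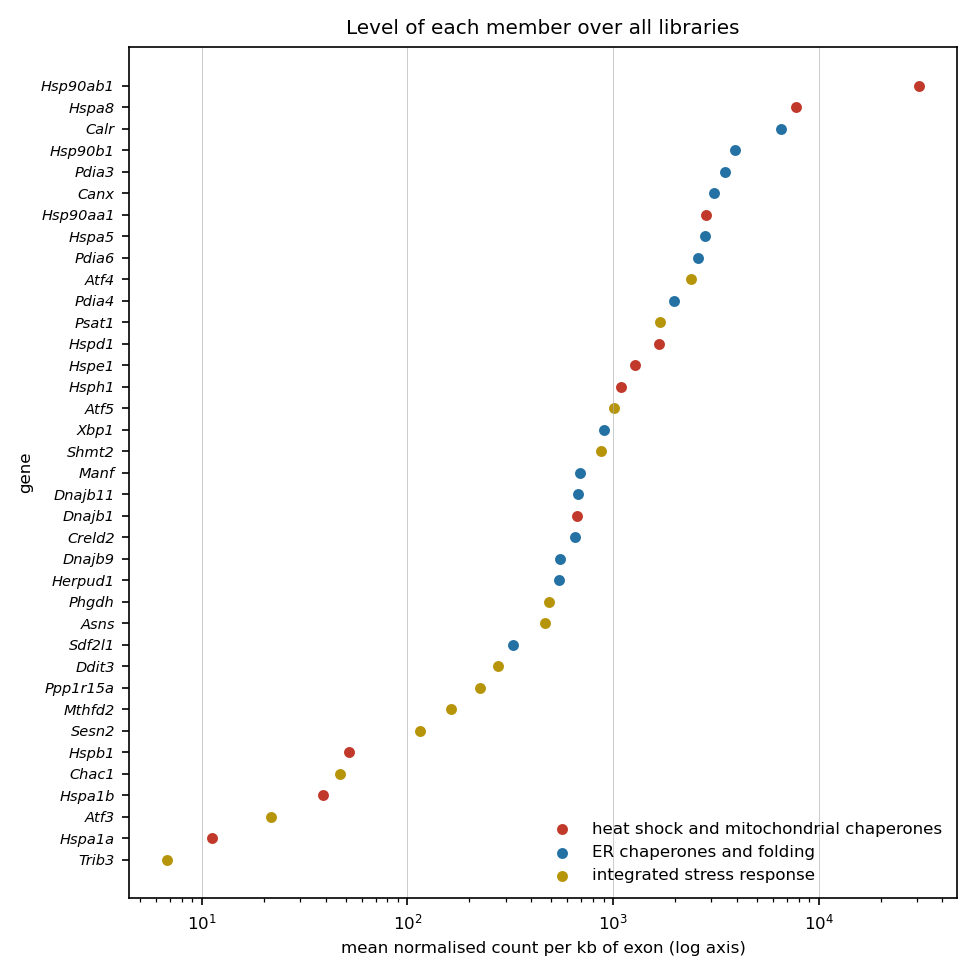
Level of each of the 37 genes as mean normalised count per kb of exon over all libraries, on a log axis, coloured by group. Hsp90ab1 is highest at 30913 and Trib3 lowest at 6.77, and the inducible genes Hspa1a, Hspa1b, Hspb1, Atf3, Chac1 and Trib3 form the low end.

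The first comparison asked what the loss of HAR1984 does to the cortex. In deletion embryos, 0 of the 36 members with an adjusted p were under 0.05 by the Wald test. Of all 18952 genes tested, 185 were (0.976%), with 0.501% higher and 0.475% lower. With so small a share passing, 0 of 36 does not set the members apart from other genes. At an unadjusted p under 0.05 the count was 0 of 37, against 9.5% of all genes tested. With the authors' deposited adjusted p it was therefore 0 too, since no member's deposited p disagreed with its statistic. Trib3 had no deposited adjusted p in the deletion and was not among the genes tested there. Estimates ran from -0.20 for Psat1 to 0.27 for Hspa1b on the log2 scale, with a median of 0.017 beside -0.0062 for all genes tested. Their Wald statistics had an SD of 0.724, against 1.20 for all genes tested. In bulk tissue, fewer cells of a type and less RNA per cell cannot be told apart. With 3 libraries per group the depth of each library is unknown, so the standard error (SE) of each estimate is the measure of its precision.

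The heat shock group had 3 genes above control and 7 below in the deletion, with a median of -0.026. Hspa8 had a log2 fold change of -0.018 (SE 0.076, adjusted p = 0.989), and its 95% interval allows between 0.891 and 1.09 times the control level. Hsp90ab1 was as closely fixed, at 0.00064 (SE 0.061). The value of Hsp90aa1 was -0.12 (SE 0.093, adjusted p = 0.797). Hsph1, a nucleotide exchange factor of HSP70, had the smallest p of the group, unadjusted 0.203, with -0.10 (SE 0.080). Dnajb1, the HSP40 that feeds substrates to HSP70, was at -0.033 (SE 0.098). The inducible genes were measured less closely. Hspa1b had 0.27 (SE 0.21, adjusted p = 0.784), which allows 0.903 to 1.62 times control, and Hspa1a had -0.034 (SE 0.32, adjusted p = 0.994), which allows 0.632 to 1.51 times control. Hspb1 was at 0.22 (SE 0.26). Hspd1 and Hspe1, with the shared promoter printed above, were at -0.066 (SE 0.066) and -0.011 (SE 0.095).

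ER genes lay mostly just above control in the deletion, 12 of 14, although 48.3% of all genes tested did, and 0 of the 14 passed. The group's median was 0.053 and its range -0.014 to 0.12. The lean was weaker among the 43 further ER genes described below, of which 26 were above control, with a median of 0.026. Calr had the smallest p of all 37 genes in this comparison, unadjusted 0.0683 and adjusted 0.583, with 0.12 (SE 0.066). Herpud1, a component of ER-associated degradation, had 0.12 (SE 0.090), and Pdia6, a disulfide isomerase, had 0.098 (SE 0.076). Hspa5 itself was at 0.050 (SE 0.10, adjusted p = 0.967), an interval of 0.898 to 1.19 times control. Xbp1, whose messenger is spliced by IRE1 in ER stress, was at 0.073 (SE 0.11, adjusted p = 0.937), and its spliced form cannot be told from values per gene. Dnajb9, an ER co-chaperone and target of XBP1, was at -0.0039 (SE 0.098, adjusted p = 0.998). The other ER members were Hsp90b1, Pdia3, Pdia4, Canx, Dnajb11, Sdf2l1, Creld2 and the secreted factor gene Manf, with estimates between -0.014 and 0.080.

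Integrated stress genes were split, 6 above control and 7 below in the deletion, with a median of -0.0023. Atf4 was at -0.0023 (SE 0.081, adjusted p = 0.998), which allows 0.895 to 1.11 times control. ATF4 is set mainly by translation, which RNA levels do not show. Of its targets, Asns, the asparagine synthetase, was at 0.046 (SE 0.16, adjusted p = 0.988) and Ddit3 at -0.074 (SE 0.11, adjusted p = 0.940). Atf3 had 0.16 (SE 0.36, adjusted p = 0.972) and Trib3 0.25 (SE 0.54, unadjusted p = 0.642). Their intervals reach up to 1.83 and 2.50 times control, so rises up to that size are not excluded at these levels. The serine and one-carbon enzymes Psat1 (-0.20, SE 0.21), Phgdh (-0.064, SE 0.19), Shmt2 (0.026, SE 0.10) and Mthfd2 (-0.11, SE 0.14) lay on both sides of control. Atf5, Chac1, Sesn2, a leucine sensor, and Ppp1r15a, the phosphatase subunit that reverses eIF2 phosphorylation, were between -0.061 and 0.066.

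**Figure D2:**
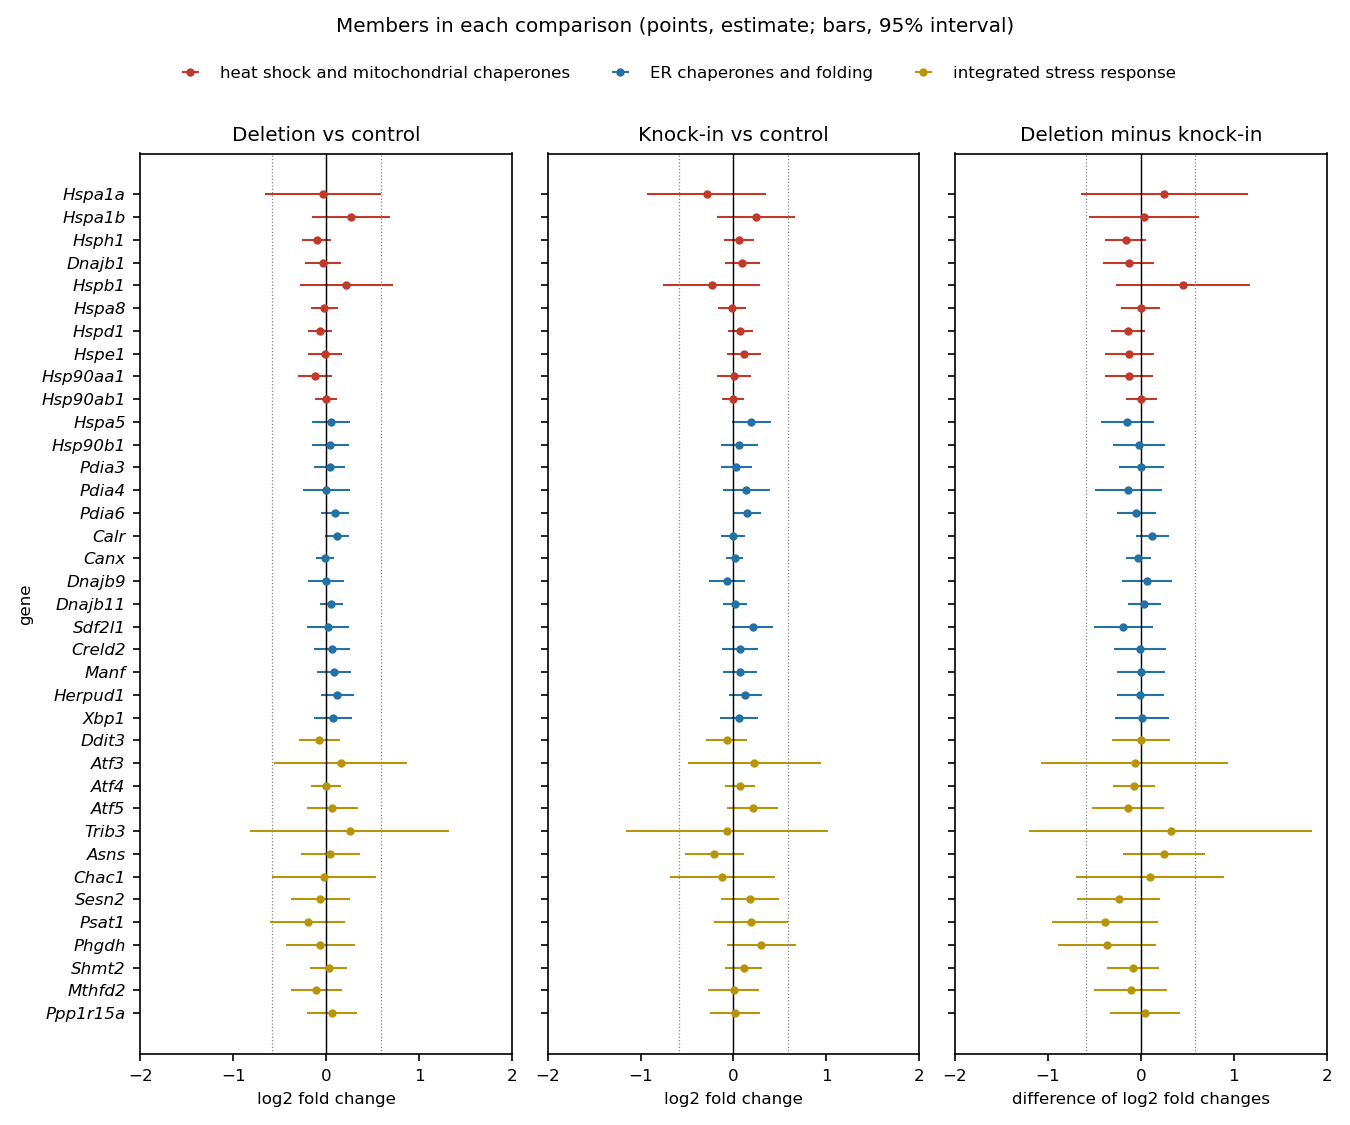
Log2 fold change of each gene against control, for the deletion and the knock-in, and the difference between both, with 95% intervals; dotted lines mark a 1.5-fold change. Every interval in the left panel and in the middle panel includes 0, and those of Trib3 and Atf3 are the widest.

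The second comparison asked what 1 human allele does in the same tissue. In knock-in embryos too, the Wald test left 0 of 37 genes with an adjusted p under 0.05, where 29 of 21222 genes tested were (0.137%; 0.0895% higher and 0.0471% lower), and 0 of 37 had an unadjusted p under 0.05, against 6.92% of all genes tested. The count by the authors' deposited adjusted p was therefore 0 as well, which is no separate check. Estimates lay between -0.29 for Hspa1a and 0.30 for Phgdh, with a median of 0.063 beside 0.0039 for all genes tested, and 27 of 37 were above control, as were 51.0% of all genes tested. The Wald statistics of the 37 genes had an SD of 0.828, against 1.10 for all genes.

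ER genes again had 12 of 14 members above control, with a median of 0.067. Both comparisons use the same control libraries, so the repeat of this count is not separate support. In the list of 43 further ER genes, 25 were above control in the knock-in, with a median of 0.019. The smallest p of the 37 genes in the knock-in was that of Pdia6, at 0.15 (SE 0.076, unadjusted p = 0.0534, adjusted p = 0.720). Hspa5 had 0.19 (SE 0.10, unadjusted p = 0.0638, adjusted p = 0.747), an interval of 0.992 to 1.32 times control, and Sdf2l1 had 0.21 (SE 0.11, unadjusted p = 0.0676). Values of other ER genes were smaller: Xbp1 was at 0.060 (SE 0.11, adjusted p = 0.951), Dnajb9 at -0.071 (SE 0.098, adjusted p = 0.925) and Calr at -0.0058 (SE 0.066). Of the ER genes with a printed response element, Pdia6 and Hspa5 were thus near the top of the group. Creld2 (0.070, SE 0.10) and Hsp90b1 (0.063, SE 0.10) were close to its median, and Calr and Canx (0.013, SE 0.048) were near its low end.

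Among heat shock genes, 6 of 10 were above control in the knock-in, with a median of 0.034. Hspa8 was at -0.016 (SE 0.076, adjusted p = 0.985), Hsp90aa1 at 0.0081 (SE 0.093, adjusted p = 0.995) and Hsp90ab1 at -0.0063 (SE 0.061). Hspa1b had 0.24 (SE 0.21, adjusted p = 0.847) and Hspa1a had -0.29 (SE 0.33, adjusted p = 0.897), so the inducible pair gave estimates of opposite sign with intervals that overlap. Hspd1 (0.075, SE 0.066) and Hspe1 (0.11, SE 0.095) were both slightly above control.

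Integrated stress genes had 9 of 13 members above control in the knock-in and a median of 0.070. Phgdh, the first enzyme of serine synthesis, had the highest estimate, 0.30 (SE 0.19, unadjusted p = 0.114), and Psat1, which acts after it, had 0.19 (SE 0.21). Asns, also an ATF4 target, lay on the other side at -0.21 (SE 0.16, adjusted p = 0.834). Atf4 was at 0.070 (SE 0.081, adjusted p = 0.899), an interval of 0.941 to 1.17 times control, and Ddit3 at -0.075 (SE 0.11, adjusted p = 0.935). Atf3 (0.23, SE 0.36, adjusted p = 0.944) and Trib3 (-0.069, SE 0.55, adjusted p = 0.992) were again the least precise.

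**Figure D3:**
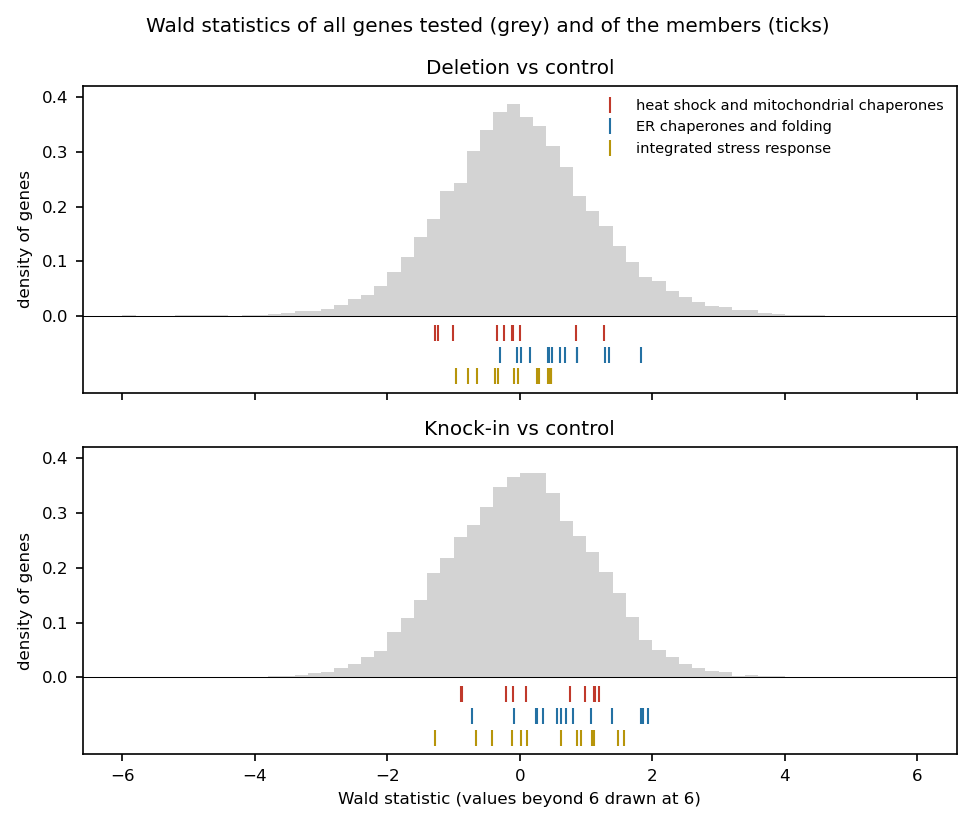
Density of Wald statistics of all genes tested in each comparison, in grey, with a tick for each of the 37 genes coloured by group. Ticks lie between -1.27 and 1.82 in the deletion and between -1.28 and 1.93 in the knock-in, while the grey distribution extends well beyond them.

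The intervals show how large a change the values still allow. A 95% interval wholly within a 1.5-fold change of control, in either direction, was found for 30 of the 37 genes in the deletion and for 29 in the knock-in. The same 29 had it in both, and the 8 that did not were Hspa1a, Hspa1b, Hspb1, Atf3, Trib3 and Chac1, all at low level, and the more abundant Psat1 and Phgdh. Of all genes tested, such an interval was held by 67.4% in the deletion and by 59.1% in the knock-in. Of those with a baseMean of at least 50, which Hspa1a, Atf3 and Trib3 do not reach, it was held by 75.7% and 74.5%. SEs of the 37 genes ran from 0.048 for Canx to 0.54 for Trib3 in the deletion, and their median of 0.10 was below the 0.14 of all genes tested.

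A direct test of the deletion against the knock-in, with no covariance assumed between both estimates, found 0 of 36 genes past an adjusted p of 0.05 and 0 of 37 with an unadjusted p under 0.05. Among all 18928 genes tested in both, 0.00528% and 2% did so. The heat shock group had 6 of 10 genes lower in the deletion than in the knock-in, with a median difference of -0.063 on the log2 scale. The ER group had 8 of 14 lower (median -0.0071) and the integrated stress group 8 of 13 (median -0.072). Of all 18928 genes, 9049 were higher in the deletion, with a median of -0.0087, so this lean was not particular to heat shock genes. Hspd1 had the smallest p, with a difference of -0.14 (SE 0.093, unadjusted p = 0.129) and an interval of -0.32 to 0.041. Hsph1 differed by -0.16 (SE 0.11, unadjusted p = 0.151). Psat1 and Phgdh had wide differences of -0.38 (SE 0.29) and -0.36 (SE 0.27), and Hspb1 had 0.45 (SE 0.37). Markers of radial glia, the progenitors of the cortex, also had a median below control in the deletion (-0.19) and above it in the knock-in (0.22), and their part in the values of Psat1 and Phgdh was not tested. Both estimates share the control libraries, which this SE leaves out. With a covariance of 0.5 times the product of the SEs, Hspd1 (unadjusted p = 0.0320) and Hsph1 (unadjusted p = 0.0425) were under 0.05, 2 of 37 genes against 10.3% of all genes, and 0 passed after adjustment.

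Some of these values are uncertain because near-identical copies can share reads, and the sources used here do not give the counting method. For each gene, the share of 50-base stretches of its GENCODE vM21 transcripts found also in transcripts of another gene was counted, on either strand. It was under 10% for 29 genes and over 20% for 8, namely Hspa1a, Hspa1b, Hspb1, Hspa8, Hspd1, Hspe1, Hsp90aa1 and Phgdh. Hspa1a (chr17:34969190-34972156) and Hspa1b (chr17:34956436-34959238), neighbours on the minus strand of mm10, share most of their sequence, with 58.8% of the stretches of Hspa1a found in Hspa1b. How reads were divided between both copies is not known, and its part in the opposite signs of this pair in the knock-in was not tested. Among ER genes the largest share was 9.76%, in Hsp90b1.

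Some of the pseudogenes that copy these chaperones were listed at levels above the gene itself, and others were low, such as Hsp25-ps1, which holds 48.8% of the stretches of Hspb1 and had a baseMean of 8.84. Gm15459, a processed pseudogene that holds 34.6% of the stretches of Hspa8, had a baseMean of 42937, above the 33342 of Hspa8. Hspd1-ps3, with 38.0% of those of Hspd1, had 5254 against 4428, and Gm12346, with 41.8% of those of Hsp90aa1, had 15369 against 11197. In the deletion Hspd1-ps3 was at -0.062 (SE 0.066) beside -0.066 for Hspd1, and Gm12346 at -0.11 (SE 0.085) beside -0.12 for Hsp90aa1, whereas Gm15459 was at 0.11 (SE 0.071) beside -0.018 for Hspa8. Phgdh and the 9 pseudogenes that share its sequence all lay above control in the knock-in, 0 of them past the threshold, and these values are not independent where copies share reads. In all, 29 other genes held over 5% of the stretches of a member, members included, and 26 of them were listed with values.

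Gm5511, one of these copies and chosen after its values were seen, was the exception. This processed pseudogene shares 5.35% of the stretches of Hsp90aa1 and had a baseMean of 482. It fell by 0.46 on the log2 scale in the deletion (SE 0.11, adjusted p = 0.00975). In the knock-in it had -0.43 (SE 0.11, unadjusted p = 1.09e-04, adjusted p = 0.0623) and did not pass. Both values share the control libraries, and the direct difference was -0.028 (SE 0.16, unadjusted p = 0.859). For the knock-in, the authors' deposited table lists Gm5511 with an adjusted p of 5.77e-05, which is below the unadjusted p that its own statistic gives. Hsp90aa1 and its larger copies Gm12346 and Gm5844 did not pass in either comparison.

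**Figure D4:**
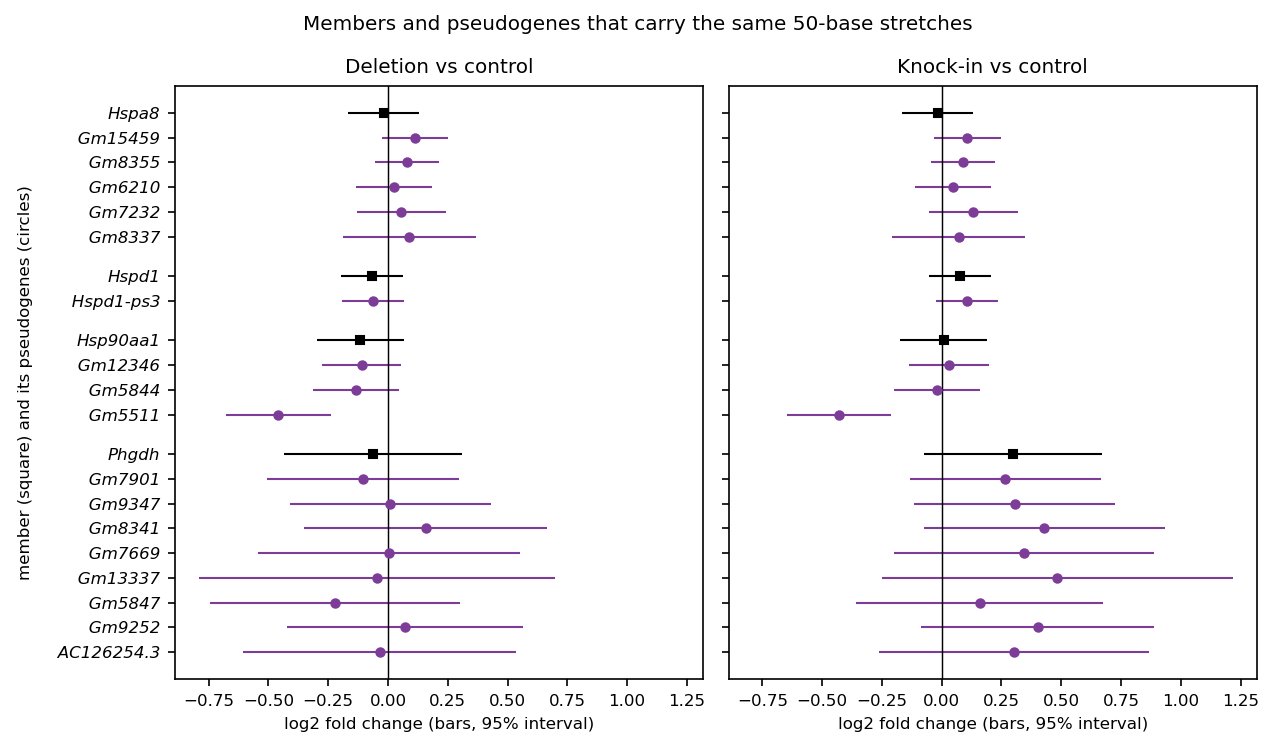
Log2 fold change with 95% interval of Hspa8, Hspd1, Hsp90aa1 and Phgdh (squares) and of pseudogenes that hold over 5% of their 50-base stretches and have a baseMean of at least 50 (circles). Gm5511 lies apart, at -0.46 (deletion) and -0.43 (knock-in), and the others have intervals that include 0.

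Wider lists of the same pathways held 1 gene past the threshold. Among 43 further ER genes, 0 passed in the knock-in, where 0.137% of all genes did, and 1 in the deletion, where 0.976% did. The 1 gene was Creb3l1 (OASIS), an ER-anchored transcription factor that is cleaved on ER stress and drives collagen and secretory genes in bone. It rose by 0.77 (SE 0.20, adjusted p = 0.0204) in the deletion. Its value in the knock-in was 0.30 (SE 0.20, adjusted p = 0.800), and the difference between both was 0.47 (SE 0.28, unadjusted p = 0.0985). Markers of the meninges were higher beside it in the deletion, 7 of 7 above control with a median of 0.82, and 4 past the threshold, and their part in the value of Creb3l1 was not tested. The sensors Ern1, Atf6 and Eif2ak3 were among the ER genes that did not pass, and the smallest p after Creb3l1 were those of Dnajc10 (-0.16, SE 0.082) and Sec62 (-0.11, SE 0.059). In the knock-in the smallest p of this list were those of Sec61b (0.25, SE 0.13), Txndc5 (0.27, SE 0.15) and Creb3l2 (0.35, SE 0.20).

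Of 40 further cytosolic and mitochondrial chaperone genes, 0 passed in either comparison, and 5 and 2 had an unadjusted p under 0.05 in the deletion and the knock-in, where 9.5% and 6.92% of all genes tested did. The smallest p in the deletion were those of Hspa13, an HSP70 relative of the ER (-0.22, SE 0.072, adjusted p = 0.118), Cryab, a small heat shock protein (0.44, SE 0.18), and Hsf2, a heat shock factor (-0.17, SE 0.081). In the knock-in they were 3 subunits of the cytosolic chaperonin, Cct4 (0.18, SE 0.061, adjusted p = 0.322), Cct3 (0.13, SE 0.061) and Cct7 (0.11, SE 0.057).

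Of 46 further integrated stress genes, 44 had an adjusted p, 0 passed in either comparison, and 5 and 3 had an unadjusted p under 0.05, again beside 9.5% and 6.92% of all genes tested. In the deletion these were led by Slc7a1, an arginine and lysine transporter (0.25, SE 0.087, adjusted p = 0.179), Nupr1, a stress-induced chromatin protein (0.83, SE 0.30, adjusted p = 0.195), and Sesn3 (-0.23, SE 0.083). In the knock-in they were Sesn1 (0.20, SE 0.089), Ddit4, an inhibitor of mTORC1 (0.25, SE 0.12), and Cebpg, a partner of ATF4 (0.14, SE 0.071), with adjusted p from 0.605 to 0.696.

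The labelled tissue was checked by its markers. Of 6 listed markers of cortical neurons 5 had values, with a baseMean of 15296 to 68675, and the 7 of radial glia had 554 to 30936. Markers of both were thus abundant, although the labels name only neural progenitors as the cell type. Other tissues differed between the groups: in the deletion all 7 meningeal and all 8 endothelial and pericyte markers were above control, with medians of 0.82 and 0.50, and all 6 markers of the ganglionic eminence were below it, with a median of -0.76. In the knock-in the same lists had medians of 0.46, 0.29 and -0.66 against the same controls. Radial glia markers had 6 of 7 genes below control in the deletion, with a median of -0.19, and 7 of 7 above it in the knock-in, with a median of 0.22. Red cell markers had 5 of 5 below control in the deletion, with a median of -0.23, and 5 of 5 above it in the knock-in, with a median of 0.27. None of the radial glia or red cell markers passed in either comparison by the Wald test, where 2 and 2 had an unadjusted p under 0.05 in the deletion and 0 and 3 in the knock-in. Of the meningeal, vascular and ganglionic eminence markers, the deletion had 4, 2 and 3 past the threshold, and the knock-in had 0. Chaperone genes are expressed in all of these cell types, and the part of cell composition in their values was not tested.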

How the data were processed

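The authors deposited tables of 1 comparison per altered genotype. Per the file headers and the deposited notes, they hold log2 fold changes and standard errors, a Wald score and p-values from DESeq2, and baseMean, a signal (mean normalised count). Without roles, the submitters' processing notes list STAR 2.7.9a, Bowtie2 2.4.4 and cutadapt, and the builds mm9 and mm10. Columns headed FPKM equalled baseMean times seeded random draws (mean 1, SD 0.1) for 235530 of 235530 and 242196 of 242196 values, tolerance 1e-09, and were used for no result.

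The deposited fold change or p disagreed with the statistic for 22 and 25 fold changes and 4 and 930 p-values, for 0 members. Fold change was therefore statistic times SE, with a 2-sided normal p, Benjamini-Hochberg adjusted over genes with a deposited adjusted p. Intervals are 95%. Steps were tested on simulated data. Genes described singly had p under 0.05 or defined a programme; other names were chosen after values were seen. Members and lists were chosen with earlier results of these data known. Python 3.11.15, numpy 2.4.6, pandas 2.3.3, scipy 1.17.1, matplotlib 3.10.9 and R 4.3.3 were used.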

Additional observations from a re-analysis of the deposited data

How the results depend on the processing

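The count of members past the threshold was 0 in both comparisons also at an adjusted p of 0.1 and with the authors' deposited adjusted p. Neither other filters nor the deposited adjusted p could have added a member at 0.05. The smallest unadjusted p by the Wald test was 0.0683 (deletion) and 0.0534 (knock-in), and no member's deposited p disagreed with its statistic. For the direct difference, 0 members passed also at 0.1 and with the covariance of 0.5 times the product of the SEs. Group medians kept their sign as inverse-variance weighted means. The deposited fold changes are those used for every member, so they test nothing here. Counts over all genes moved: in the deletion from 185 to 308 at an adjusted p of 0.1 and to 115 with adjustment over every gene, and in the knock-in from 29 to 58 at 0.1 and to 930 with the deposited adjusted p. The cause of these shifts is the threshold, the number of genes adjusted over, or the deposited p-values that disagree with their statistics, by construction. Gm5511 in the knock-in passed by the authors' deposited table, an alternative chosen after seeing the data. No paired analysis was possible because values per library were not usable, and for the same reason no replicate could be left out. Low level limits Hspa1a, Atf3 and Trib3 most.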
